A study of Mus musculus with 6 samples.

Results

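To investigate how long noncoding RNAs (lncRNAs) followed neuronal activity, 10 lncRNA genes were read out of the RNA-seq of depolarized mouse cortical neurons. The genes were taken by name from the imprinted, nuclear and small nucleolar RNA (snoRNA) host lncRNAs. They were Meg3, Rian, Mirg, Malat1, Neat1, Miat, Snhg11, Snhg1, Gas5 and Kcnq1ot1. Of these 10 genes, 9 had a row among the 43432 genes of the deposited tables, and Snhg1 was not analysed here. Cortical neurons were prepared from wild-type C57BL/6 embryos at E16.5, with male and female embryos pooled, and were grown in vitro for 7 days. All cultures, the 0 h control included, were silenced overnight with 1 µM tetrodotoxin (TTX), which blocks sodium channels, and 100 µM DL-AP5, which blocks NMDA receptors. Depolarization by 55 mM KCl, through which calcium enters by voltage-gated channels, then lasted 0 h, 2 h or 6 h, with 2 biological replicates at each time and 6 libraries in all. Each library was made from RNA that had passed 2 rounds of poly(A) selection.

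A lncRNA is a transcript that is processed much like an mRNA but acts as RNA rather than as a template for protein. Meg3, Rian and Mirg are transcribed from the maternal chromosome of the imprinted Dlk1-Dio3 domain, and their introns and exons carry snoRNAs and microRNAs, whereas Kcnq1ot1 is transcribed from the paternal chromosome and silences its neighbours in cis. Malat1, Neat1 and Miat stay in the nucleus, in nuclear speckles, in paraspeckles and in a further class of nuclear bodies, and Snhg11, Snhg1 and Gas5 release snoRNAs from their introns when they are spliced.

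Libraries held between 25959298 and 28573067 expected counts, the read numbers that RSEM assigns to genes. Fos, an immediate early gene, had 38.2 and 34.6 normalized counts at 0 h, then 6939.3 and 8222 at 2 h and finally 3915.3 and 3806.4 at 6 h, which follows the labelled times. Summed TPM (a level per length that is scaled within each library) of 7 neuronal markers was 3418 and 3370 at 0 h, then 2829 and 2698 at 2 h and finally 3029 and 3167 at 6 h. Summed TPM of 5 astrocyte markers lay between 430.1 and 470.7 at 0 h and 2 h and was lower at 6 h (369.4 and 359.9), and that of 3 markers of dividing cells went from 108.7 to 127.6 at 0 h and 2 h to 93.15 and 83.04. None of these 8 genes was called in any comparison, and their part in the results below was not tested. Of the neuronal markers, 2 were called higher and 1 lower at 6 h against 0 h. The defining markers of microglia and endothelium were near 0, with sums of at most 4.31 and 1.51 TPM. In such bulk samples, fewer cells of a type and less RNA per cell cannot be told apart. The 2 libraries at 2 h stood apart from each other: over 12253 genes the log2 ratio of the replicates had an SD of 0.42 at 2 h, compared with 0.241 (0 h) and 0.213 (6 h). The median log2 ratio of replicate 1 over replicate 2 at 2 h was 0.4 in the 3064 genes with the lowest GC content and -0.26 in the 3063 genes with the highest, so the values of each member are given per library and, where it mattered, after a correction for GC content.

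The sequences that Meg3, Rian and Mirg carry show what these transcripts release besides themselves. On GRCm38, Meg3 lies at chr12:109541001-109571726, Rian at chr12:109603940-109661716 and Mirg at chr12:109729764-109749460, all on the plus strand. Within these spans and on that strand, the annotation placed 1 microRNA hairpin in Meg3, 13 snoRNA genes and 3 microRNA hairpins in Rian, and 14 microRNA hairpins in Mirg. A total of 35 mature microRNAs of RefSeq (GRCm38.p6) matched by position, of which 3 lay in Meg3, 6 in Rian and 26 in Mirg. They had 34 different seeds, bases 2 to 8, which are in capitals below and pair with the target. Only miR-453 and miR-496a-5p shared a seed. The mature microRNAs in Meg3 belong to Mir1906-1 and Mir770, although 1 hairpin was counted in its span, a difference that was not examined. The lines give the shared seed first, then miR-134-5p, known from dendrites of cortical and hippocampal neurons, then 1 microRNA near the end of the Mirg cluster and 1 each from Rian and Meg3. The mature microRNAs themselves were not measured by these poly(A) libraries.
Mirg, miR-453 (chr12:109735669-109735692): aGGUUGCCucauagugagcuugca
Mirg, miR-496a-5p (chr12:109739132-109739152): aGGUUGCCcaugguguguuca
Mirg, miR-134-5p (chr12:109734145-109734166): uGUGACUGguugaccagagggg
Mirg, miR-410-3p (chr12:109743764-109743784): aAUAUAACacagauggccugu
Rian, miR-370-3p (chr12:109618305-109618326): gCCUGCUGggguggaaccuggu
Meg3, miR-770-5p (chr12:109563710-109563731): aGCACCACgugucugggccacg

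Promoters were searched because several members moved together with a stimulus that acts on transcription through calcium. RefSeq (GRCm38.p6) gave 11 promoter entries, each from 250 bases before to 50 bases after a start, for 9 of the 10 genes, all but Neat1. On both strands, the cAMP response element (CRE), TGACGTCA, was present in 1.79% of all 32817 promoters, its core TGACG, which every CRE also contains, in 20.8%, the AP-1 site TGANTCA in 7.81% and the TATA box TATAAA in 13.6%. A CRE was found in 1 of 2 entries of Meg3, with its first base 57 bases before the start, and in 1 of 2 entries of Gas5, 46 bases before the start. The core alone was found in Malat1 (3 matches) and Kcnq1ot1 (1 match), TATA boxes in Meg3 and Snhg1, and no AP-1 site in any entry. The 2 promoters with a CRE are printed because Meg3 was called at 6 h and Gas5 in no comparison (a difference between them was not tested), and capitals mark the CRE and the TATA boxes.
Meg3 (chr12:109540746-109541045, plus strand): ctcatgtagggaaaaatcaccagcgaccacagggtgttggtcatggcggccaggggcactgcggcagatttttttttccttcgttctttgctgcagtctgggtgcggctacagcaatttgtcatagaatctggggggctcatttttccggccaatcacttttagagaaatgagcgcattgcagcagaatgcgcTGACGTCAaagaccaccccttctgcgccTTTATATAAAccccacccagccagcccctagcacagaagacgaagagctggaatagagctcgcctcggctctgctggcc
Gas5 (chr1:161034916-161035215, plus strand): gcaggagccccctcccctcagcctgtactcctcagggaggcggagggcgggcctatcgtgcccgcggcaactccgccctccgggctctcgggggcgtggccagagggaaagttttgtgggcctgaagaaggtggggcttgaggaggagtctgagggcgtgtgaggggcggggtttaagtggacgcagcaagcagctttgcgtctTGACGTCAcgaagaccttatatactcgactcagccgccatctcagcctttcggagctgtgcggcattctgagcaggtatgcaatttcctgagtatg

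To see how abundant each lncRNA was, TPM values were ranked within each time point. Rian was the highest of all annotated lncRNAs at every time, and at 6 h it ranked 54 of 20335 genes with a value above 0. Of the other members Gas5 and Meg3 came next, and Malat1, Miat, Mirg and Snhg11 held middle levels. Neat1 and Kcnq1ot1 were low per length in these poly(A)-selected libraries, which departs from the description of these genes as abundant. At 0 h, Neat1 exceeded only 30.8% and Kcnq1ot1 only 22.9% of the genes with a value. Their level in RNA without a poly(A) tail was not measured. Snhg11 is typed as protein coding in the GENCODE M21 annotation and was left out of ranks among lncRNAs.

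**Figure D1:**
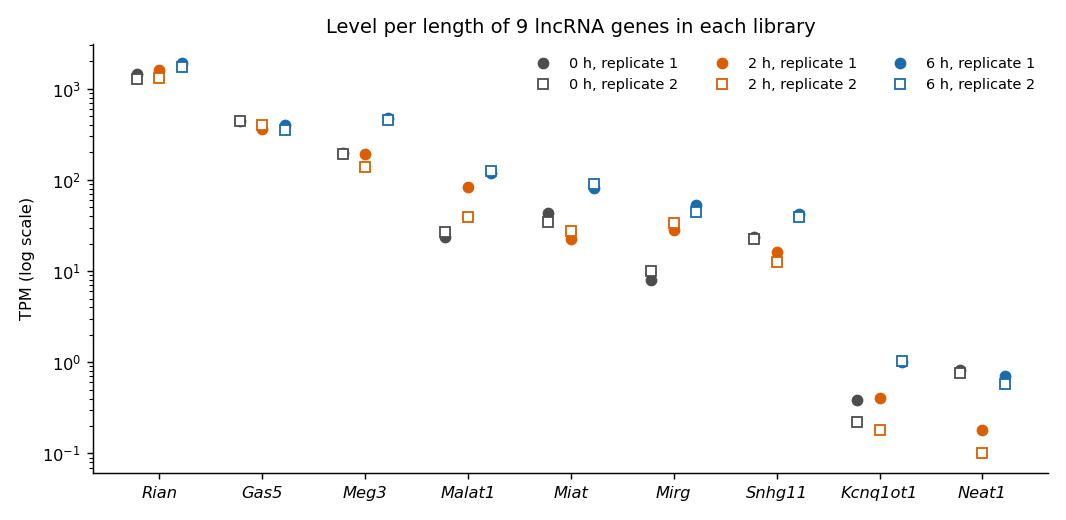
TPM of each gene in each of the 6 libraries, on a log axis, with genes ordered by their mean and colours for hours of KCl. Rian sits at 1290 TPM or more in each library, while Neat1 and Kcnq1ot1 sit near or below 1 TPM.

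At 0 h the order of mean TPM ± SD (n = 2) was Rian (1371 ± 114), Gas5 (441.3 ± 1.91), Meg3 (194.5 ± 4.84), Miat (38.95 ± 6.82), Malat1 (25.27 ± 1.94), Snhg11 (22.98 ± 1.03), Mirg (8.99 ± 1.34), Neat1 (0.795 ± 0.0495) and Kcnq1ot1 (0.305 ± 0.12). Malat1 and Snhg11 were neighbours within their spread, with 23.89 TPM in the lower Malat1 library and 23.71 TPM in the higher Snhg11 library. At 2 h the means were Rian (1452 ± 191), Gas5 (379.6 ± 22.8), Meg3 (165.3 ± 35.9), Malat1 (61.76 ± 31.3), Mirg (30.96 ± 4), Miat (25.09 ± 3.47), Snhg11 (14.4 ± 2.56), Kcnq1ot1 (0.295 ± 0.163) and Neat1 (0.14 ± 0.0566). The mean ± SD of Malat1 met that of Mirg there, that of Mirg met that of Miat, and that of Kcnq1ot1 met that of Neat1. At 6 h Meg3 (468.1 ± 12.3) stood above Gas5 (374.4 ± 31), Malat1 (122 ± 4.09) above Miat (84.88 ± 6.16), and Kcnq1ot1 (1.025 ± 0.0212) above Neat1 (0.645 ± 0.0919). In all 3 of these pairs the libraries of the 2 genes did not overlap. Rian (1819 ± 104) stayed first, and Mirg (49.15 ± 6.14) and Snhg11 (40.98 ± 2.49) lay between Miat and Kcnq1ot1, with mean ± SD that met. The 9 genes together took between 0.16% and 0.204% of all expected counts at 0 h and 2 h, and 0.33% and 0.309% at 6 h. As a share of the counts of Snhg11 and all genes typed as lncRNA, they took 24% and 23.2% at 0 h, then 23.3% and 22.6% at 2 h and finally 34.1% and 32.9% at 6 h.

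To determine which lncRNAs had responded after 2 h, the 2 h libraries were compared with the 0 h libraries. Mirg rose 4.81-fold and Neat1 fell to 0.174 of its level, and these were the only members called, 1 higher and 1 lower of 9. A gene was called where its DESeq2 adjusted p was 0.05 or less with a change of more than 2-fold, a rule that called 9.55% of 16840 genes (3.62% higher, 5.94% lower). By a weaker rule, an adjusted p of 0.05 or less with any fold, Malat1 was also higher and Miat and Snhg11 were also lower, which makes 2 higher and 3 lower of 9, against 26.5% of all genes (12.3% higher, 14.2% lower). The median log2 fold change of the 9 members was -0.07, and that of all genes 0.015.

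After 6 h the picture was mostly of higher levels. Meg3, Mirg, Malat1, Miat and Kcnq1ot1 were called higher than at 0 h, 5 of 9, and none was called lower, where the rule called 19.3% of 17277 genes (9.1% higher, 10.2% lower). Rian and Snhg11 joined them by the weaker rule, 7 of 9, against 45.3% of all genes (23.7% higher, 21.7% lower). Neat1 and Gas5 passed neither rule. The median log2 fold change of the members was 1.34, and that of all genes 0.

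Between 2 h and 6 h most members were higher at the later time. Meg3, Malat1, Neat1, Miat, Snhg11 and Kcnq1ot1 were called higher in the 6 h libraries against 2 h, 6 of 9, where the rule called 18.1% of 16404 genes (10.1% higher, 8.02% lower). With Mirg the weaker rule passed 7 of 9, against 45.3% of all genes (24.1% higher, 21.2% lower). Both 6 h libraries were above both 2 h libraries for all 9 members in normalized counts, but after GC correction the libraries of Rian and Gas5 overlapped and their direction turned. How many of all genes separated in this way was not counted, so this separation is a description only. The median log2 fold change of the members was 1.48, and that of all genes -0.005. The 3 comparisons share libraries, so their counts are not separate evidence, and with 2 libraries per group the p-values measure the spread between these cultures only.

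**Figure D2:**
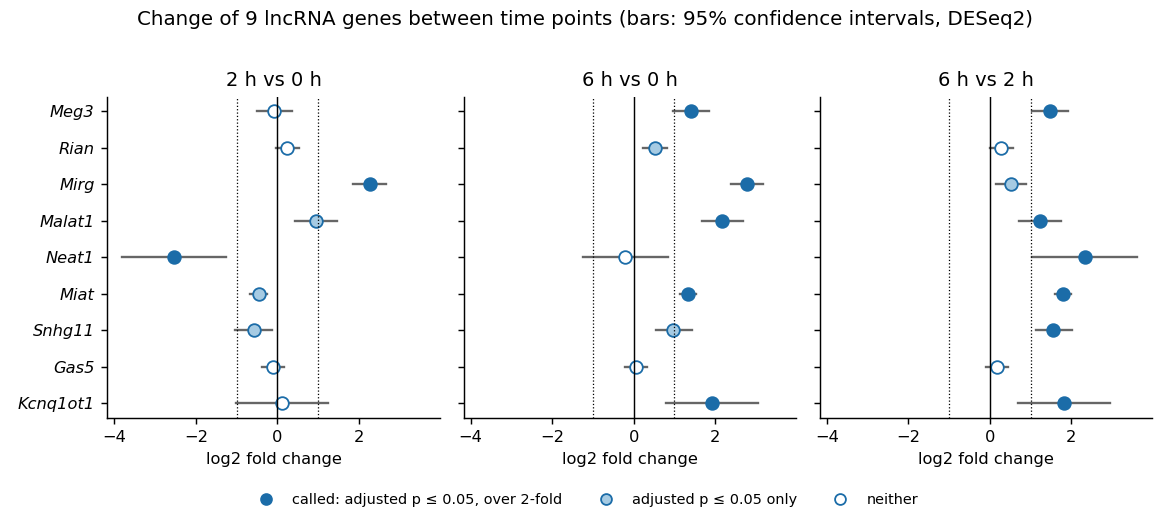
Log2 fold change of each gene in 3 comparisons, with 95% confidence intervals as bars, dotted lines at 2-fold and fill for the 2 call rules. Mirg and Neat1 stand out at 2 h, and 6 genes lie beyond 2-fold in 6 h against 2 h, with Neat1 and Kcnq1ot1 having the widest intervals.

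Among the transcripts of the Dlk1-Dio3 domain, Mirg, the microRNA host at the far end of the domain, was the one called at 2 h. Its normalized counts were 108.3 and 105.34 at 0 h, then 459.36 and 568.6 at 2 h and finally 786.48 and 688.36 at 6 h. The groups did not overlap at any time, and each later group lay above the earlier one. Mirg changed by 2.27 ± 0.2 (SE, DESeq2 adjusted p = 9.44e-27) on the log2 scale at 2 h against 0 h and 2.79 ± 0.2 (adjusted p = 3.14e-41) at 6 h against 0 h. Between 2 h and 6 h it was 0.52 ± 0.19 (adjusted p = 0.0132), a step that did not pass with any of 5 libraries left out, at an adjusted p from 0.0534 to 0.262. Leaving out replicate 2 at 2 h was the exception, with a log2 fold change of 0.7 and an adjusted p of 0.00314, and with library totals the adjusted p was 0.0521.

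Meg3, a maternally expressed lncRNA known for its loss in tumours, was called only in the comparisons with 6 h. It had 14858 and 11177 normalized counts at 0 h, then 14985 and 9871 at 2 h and finally 35764 and 33518 at 6 h. The libraries at 0 h and 2 h overlapped, and both libraries at 6 h were above them. Its log2 fold change at 2 h was -0.07 ± 0.22 (adjusted p = 0.884), with a 95% interval from -0.5 to 0.37, and its sign turned without replicate 1 at 0 h (0.16) or replicate 2 at 2 h (0.19). At 6 h it was 1.41 ± 0.22 against 0 h (adjusted p = 1.69e-09) and 1.48 against 2 h (adjusted p = 2.93e-10). Meg3 had non-whole expected counts in all 6 libraries, which RSEM gives where reads are shared with other transcripts.

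Rian, the snoRNA host between them, was the most abundant and had the smallest fold change of the 3 at 6 h against 0 h. Its normalized counts were 24963 and 22196 at 0 h, then 31028 and 24995 at 2 h and finally 35518 and 32567 at 6 h. Each later group lay above each earlier one, though at 2 h and 0 h the nearest libraries were 24995 and 24963. Rian had log2 fold changes of 0.25 ± 0.15 at 2 h (adjusted p = 0.229) and 0.53 ± 0.15 at 6 h (adjusted p = 0.00116), a 1.44-fold rise. With GC correction the values were 0.42 (adjusted p = 0.00037) at 2 h and 0.25 (adjusted p = 0.041) at 6 h, and the change between 2 h and 6 h turned from 0.28 to -0.18, neither of which passed the test. Without replicate 2 at 0 h or replicate 1 at 6 h, the 6 h rise no longer passed, with adjusted p values of 0.0893 and 0.0836, nor did it with library totals as size factors (0.28, adjusted p = 0.0671), and without replicate 2 at 2 h the 2 h value passed (0.38, adjusted p = 2.75e-05). Rian has a GC content of 40.4%, below the lower quartile of the genes tested (45.3%).

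**Figure D3:**
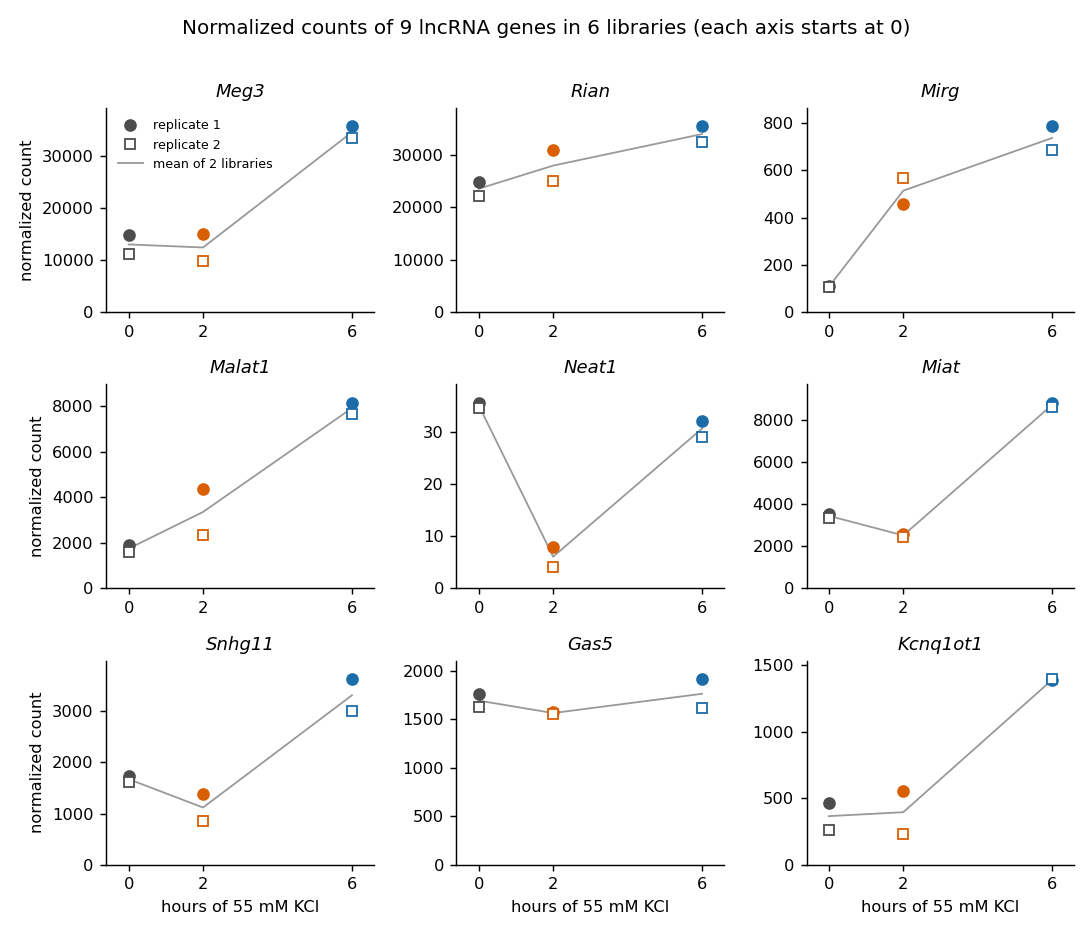
Normalized counts of the 9 genes in each library, 1 panel a gene, against hours of KCl, with points for the 2 replicates and a line through their mean. Mirg climbs at both steps, Meg3, Miat, Snhg11 and Kcnq1ot1 climb after 2 h, Neat1 dips at 2 h and Gas5 stays between 1554 and 1911.

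The proportions of the 3 neighbours therefore shifted. The TPM of Rian over that of Meg3 was 7.33 and 6.75 at 0 h, then 8.32 and 9.41 at 2 h and finally 3.97 and 3.8 at 6 h. The TPM of Meg3 over that of Mirg was 24.6 and 19.2 at 0 h, then 6.78 and 4.14 at 2 h and finally 8.91 and 10.3 at 6 h. The libraries of the 3 times did not overlap in either ratio, and no test was made on the ratios. Of the protein-coding genes of the domain, which are transcribed from the paternal chromosome, Rtl1, a retrotransposon-derived gene antisense to transcripts of this locus, was called higher at 6 h. It had 83.4 and 75 normalized counts at 0 h, then 71.9 and 40.3 at 2 h and finally 157.3 and 169.9 at 6 h, with a log2 fold change of 1.05 ± 0.34 (adjusted p = 0.00583) at 6 h against 0 h and 1.54 ± 0.35 (adjusted p = 4.84e-05) against 2 h. The call against 0 h was lost without any one of the 0 h and 6 h libraries, at adjusted p values from 0.0701 to 0.145, with library totals (0.8) and with limma on TPM (0.61). Whether counting used the strand is not given in the sources used here, so reads of Rtl1 and of RNA from the other strand may not have been told apart. Dlk1, which encodes a Notch ligand homologue, and Dio3, which encodes a deiodinase of thyroid hormone, had at most 17.7 normalized counts in any library, and neither passed in any comparison. The log2 fold change of Dio3 at 6 h was -2.15 ± 1.05 (adjusted p = 0.082).

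**Figure D4:**
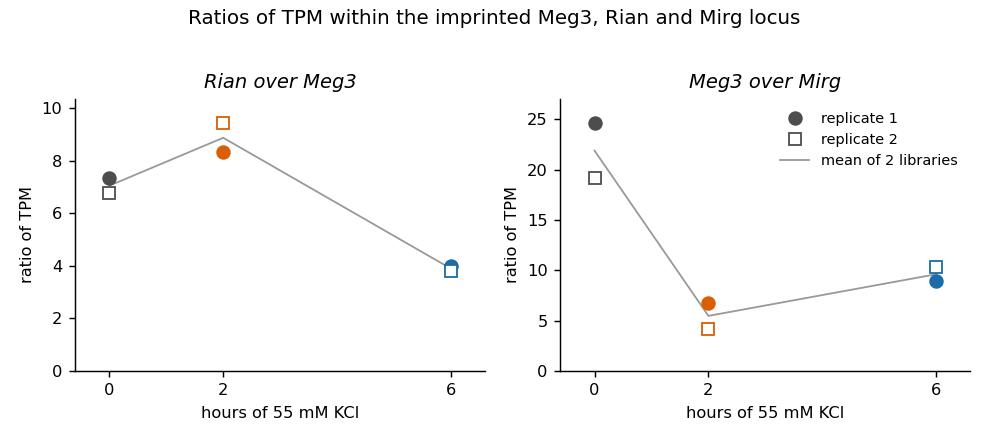
Ratio of TPM of Rian over Meg3 and of Meg3 over Mirg in each library against hours of KCl, with the mean of 2 libraries as a line. Rian over Meg3 is lowest at 6 h (3.97 and 3.8), and Meg3 over Mirg is lowest at 2 h (6.78 and 4.14).

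One further transcript lay inside the Rian span. Gm26945, at chr12:109640341-109642351 on the same strand, shares no exon base with Rian. It had 19.5 and 8.4 normalized counts at 0 h, then 27 and 3.1 at 2 h and finally 80.3 and 72.1 at 6 h, and its log2 fold change at 6 h was 2.45 (adjusted p = 0.00828).

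Of the nuclear lncRNAs, Malat1, a lncRNA of nuclear speckles, rose at 2 h and again at 6 h. It lies at chr19:5795690-5802672 on the minus strand, and had 1903.2 and 1594.4 normalized counts at 0 h, then 4359.9 and 2362.3 at 2 h and finally 8160.1 and 7687 at 6 h. The groups did not overlap, but the 2 h libraries differed from each other by 0.88 on the log2 scale. The log2 fold change was 0.94 ± 0.26 at 2 h (adjusted p = 0.00209), 2.18 ± 0.26 at 6 h (adjusted p = 1.47e-15) and 1.24 ± 0.26 between them (adjusted p = 1.2e-05). The size at 2 h depended on the library, with 1.3 without replicate 2 at 2 h, 0.42 without replicate 1 at 2 h, 1.08 without replicate 1 at 0 h and 0.83 (adjusted p = 0.0805) without replicate 2 at 0 h. After GC correction the 2 h libraries differed by 0.43, Malat1 passed the 2-fold limit at 2 h (adjusted p = 3.6e-13), and the step from 2 h to 6 h was 0.97, just under it. Without replicate 2 at 2 h that step was 0.88. The end of Malat1 is an A-rich tract encoded in the genome rather than an added poly(A) tail, and how well poly(A) selection captured it was not tested.

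Neat1, the RNA scaffold of paraspeckles, dipped at 2 h. It lies at chr19:5824708-5845478 on the minus strand, beside Malat1, and had 40 and 41 expected counts at 0 h, then 8 and 4 at 2 h and finally 30 and 27 at 6 h. The exact 95% Poisson intervals, which cover counting error only, ran from 28.6 to 55.6 over the 0 h libraries and from 1.1 to 15.8 over the 2 h libraries, and both 2 h libraries also lay below both 6 h libraries. On the log2 scale the change was -2.53 ± 0.65 at 2 h (adjusted p = 0.000767), 2.33 ± 0.66 from 2 h to 6 h (adjusted p = 0.0014) and -0.2 ± 0.53 at 6 h against 0 h (adjusted p = 0.802, 95% interval from -1.24 to 0.85). The fall did not pass without replicate 1 at 0 h (-2.5, adjusted p = 0.0688) or replicate 2 at 0 h (-2.54, adjusted p = 0.0597). The rise from 2 h to 6 h did not pass without replicate 2 at 2 h (1.95, adjusted p = 0.0607) or replicate 1 at 6 h (2.25, adjusted p = 0.0566). As Malat1 rose while Neat1 fell, the TPM of Malat1 over that of Neat1 was 28.8 and 35.1 at 0 h, then 466 and 396 at 2 h and finally 168 and 215 at 6 h. The longer form of Neat1 ends without a poly(A) tail, and the values here were not split by form.

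Miat, a lncRNA of neurons also called Gomafu, fell at 2 h and rose at 6 h with the smallest standard error of the 9 members. It lies at chr5:112213228-112229395 on the minus strand, and had 3541 and 3348 normalized counts at 0 h, then 2600 and 2432 at 2 h and finally 8815 and 8619 at 6 h. The 3 groups did not overlap. For Miat the log2 fold change was -0.45 ± 0.1 at 2 h (adjusted p = 0.000105), 1.34 ± 0.1 at 6 h (adjusted p = 1.08e-37) and 1.79 ± 0.1 from 2 h to 6 h (adjusted p = 1.25e-65). The fall at 2 h kept its size but did not pass without replicate 1 at 0 h (-0.4, adjusted p = 0.132) or replicate 2 at 0 h (-0.48, adjusted p = 0.0528).

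The protein partners of these nuclear RNAs were read from lists of known genes. Of 12 nuclear speckle and serine/arginine-rich (SR) splicing proteins, 4 were called higher at 6 h against 0 h and none lower, 33.3% beside 9.1% of all genes called higher, with a median log2 fold change of 0.82, and none was called at 2 h. All 4 lay close to 2-fold: library totals left 1 called, and limma on TPM or a test against a 2-fold change left none. The largest was Srsf6 (1.26 ± 0.13, adjusted p = 1.05e-20) and the smallest called was Srsf5 (1.09 ± 0.09, adjusted p = 3.24e-31), both splicing factors. Of 11 paraspeckle proteins, only Cpsf6, a subunit of the cleavage factor that sets poly(A) sites, was called at 6 h against 0 h, 9.09% beside 19.3% of all genes. Its log2 fold change was 1.23 ± 0.23 (adjusted p = 5.57e-07), and 0.98 with library totals. The list median was 0.22. None was called at 2 h or from 2 h to 6 h, where the rule called 9.55% and 18.1% of all genes. GC correction called 2 of the list at 6 h against 0 h, and edgeR, TMM factors, library totals and GC correction each called 2 from 2 h to 6 h. By the weaker rule 5 of the 11 were higher and 2 lower at 6 h against 0 h, where that rule passed 23.7% of all genes as higher and 21.7% as lower. The lower ones were Pspc1, a core paraspeckle protein (-0.88 ± 0.12, adjusted p = 1.12e-12, and -0.99 against 2 h), and Hnrnph3, an RNA-binding protein (-0.73 ± 0.13, adjusted p = 2.38e-07, and -0.98 against 2 h), both named after their values were seen. Sfpq and Nono, core proteins of paraspeckles, had log2 fold changes of 0.51 (adjusted p = 2.55e-06) and 0.19 (adjusted p = 0.0953) at 2 h, when Neat1 was lowest. By the weaker rule 3 of the 11 paraspeckle proteins were higher at 2 h and none lower, beside 12.3% and 14.2% of all genes. Of the proteins known to bind Miat, Sf1, a splicing factor of the branch site, had log2 fold changes of 0.97 at 2 h (adjusted p = 1.01e-16) and 0.96 at 6 h (adjusted p = 9.82e-17), and Celf3 had 0.24 (adjusted p = 0.337) and -0.11 (adjusted p = 0.631).

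Of the snoRNA hosts, Snhg11 was lower at 2 h and higher at 6 h, whereas Gas5 passed in no comparison. Snhg11 lies at chr2:158375638-158386145 on the plus strand with 2 snoRNA genes in its span, and had 1733.7 and 1609.6 normalized counts at 0 h, then 1374.1 and 862.2 at 2 h and finally 3623 and 2993 at 6 h. The groups did not overlap, with the 2 h libraries lowest and the 6 h libraries highest. Snhg11 had log2 fold changes of -0.58 ± 0.23 at 2 h (adjusted p = 0.0432), 0.98 ± 0.23 at 6 h (adjusted p = 6.35e-05) and 1.56 ± 0.23 from 2 h to 6 h (adjusted p = 8.08e-11). The fall at 2 h passed with replicate 1 at 2 h left out (-0.97, adjusted p = 1.16e-11) but with none of the other 5 libraries left out, at -0.3 (adjusted p = 0.0642) without replicate 2 at 2 h and at adjusted p values up to 0.317. With GC correction it was -0.56 (adjusted p = 0.124). At 6 h the rise passed 2-fold without replicate 1 at 0 h (1.04) or replicate 2 at 6 h (1.12).

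Gas5, at chr1:161034422-161038539 on the plus strand, holds 10 snoRNA genes in its span and is known for a spliced RNA that is removed by nonsense-mediated decay. It had 1758 and 1623 normalized counts at 0 h, then 1571 and 1554 at 2 h and finally 1911 and 1610 at 6 h. The 6 h libraries spanned the 0 h libraries. The log2 fold change was -0.11 (95% interval from -0.38 to 0.16, adjusted p = 0.632) at 2 h and 0.06 (95% interval from -0.21 to 0.33, adjusted p = 0.767) at 6 h, so a change of 2-fold in either direction lay outside both intervals. The sign at 6 h turned to -0.07 without replicate 1 at 6 h and to -0.15 with GC correction. Zbtb37, a zinc finger gene on the opposite strand at chr1:161002922-161034849, overlaps Gas5 by position but shares no exon base with it. Its log2 fold change was -0.75 at 2 h (adjusted p = 0.0209) and -0.15 at 6 h (adjusted p = 0.696). Reads of the strands may not have been told apart here either.

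Among 11 other snoRNA hosts tested, 2 were called lower at 2 h and 2 higher from 2 h to 6 h, 18.2% in each case beside 9.55% and 18.1% of all genes, and none passed either rule at 6 h against 0 h. The count at 2 h was 1 with any library left out, and that from 2 h to 6 h was 0 to 2. The median log2 fold changes of this list were 0.06, 0.24 and 0.22. Snhg5 had 387.9 and 408.7 normalized counts at 0 h, then 179.7 and 183 at 2 h and finally 452.6 and 342 at 6 h, with a log2 fold change of -1.14 ± 0.21 (adjusted p = 1.13e-06) at 2 h and 1.13 ± 0.21 (adjusted p = 7.07e-07) from 2 h to 6 h, the latter under 2-fold with GC correction (0.92) or without replicate 1 at 6 h (0.91). Snhg20, the other called host, had a log2 fold change of -1.18 ± 0.45 (adjusted p = 0.0357) at 2 h and was named after its values were seen. It lost the call at 2 h with each of the 6 libraries left out, at adjusted p values from 0.123 to 0.389, with the replicate block (0.0968) and with the effective length offset (0.0779), and its call from 2 h to 6 h was lost with each library left out too. Of 17 proteins that form or assemble snoRNPs, 2 were called higher and 1 lower at 6 h against 0 h, 17.6% beside 19.3% of all genes, with a median log2 fold change of -0.13. The 3 calls lay close to 2-fold, and 1 was left with edgeR, TMM factors or limma on TPM. They included Dkc1, the pseudouridine synthase (1.02 ± 0.12, adjusted p = 3.47e-17), and Znhit3, an assembly factor (-1.03 ± 0.17, adjusted p = 5.01e-09). Of 14 nonsense-mediated decay genes, Casc3, a core protein of the exon junction complex, was called higher at 6 h against 0 h (1.36 ± 0.11, adjusted p = 1.5e-36). Smg9, a regulator of the kinase Smg1, was called lower (-1.06 ± 0.22, adjusted p = 6.56e-06). They made up 14.3% of the list, beside 19.3% of all genes called, and the list median was 0.29. Smg9 was under 2-fold with GC correction (-0.92), the effective length offset (-0.65) and limma on TPM (-0.78).

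Kcnq1ot1, the paternal antisense RNA of the Kcnq1 domain, lies at chr7:143203458-143296549 on the minus strand. It had 466.9 and 263.8 normalized counts at 0 h, then 555.2 and 234.7 at 2 h and finally 1384.6 and 1393.9 at 6 h. Replicate 1 was higher than replicate 2 at 0 h and at 2 h, by 0.82 and 1.24 on the log2 scale, and both 6 h libraries were above all others. The log2 fold change was 0.11 ± 0.58 at 2 h (adjusted p = 0.927, 95% interval from -1.02 to 1.24), 1.93 ± 0.58 at 6 h (adjusted p = 0.0026) and 1.81 ± 0.58 from 2 h to 6 h (adjusted p = 0.00486). The sign at 2 h turned without replicate 2 at 0 h (-0.23) or replicate 1 at 2 h (-0.65). The rise at 6 h did not pass without replicate 1 at 6 h (1.93, adjusted p = 0.072) or replicate 2 at 6 h (1.92, adjusted p = 0.074), and from 2 h to 6 h the adjusted p values without these libraries were 0.0933 and 0.0973. The size of that step rested on the 2 h libraries, with 2.57 without replicate 1 at 2 h and 1.34 without replicate 2. Its expected counts were non-whole in all 6 libraries, and its annotated transcript is 93092 bases long in GENCODE M21 while its effective length in the tables was between 84073 and 84093 bases, so the transcript models behind the tables differed from those of GENCODE M21.

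The neighbours of Kcnq1ot1 differed in level and in change. Kcnq1, whose intron holds Kcnq1ot1 on the opposite strand, and Slc22a18 had at most 3.1 and 4.1 normalized counts in a library, and Phlda2 was listed at 0 in all 6 libraries. Cdkn1c, a cell cycle inhibitor, had 27.5 and 40.5 normalized counts at 0 h, then 46.9 and 43.4 at 2 h and finally 25.7 and 31.2 at 6 h, with a log2 fold change of -0.26 ± 0.47 (adjusted p = 0.698) at 6 h. Of 9 genes of the Kcnq1 domain tested at 6 h, only Osbpl5, a lipid transfer protein, was called, beside 19.3% of all genes. It had 1116.7 and 1077.8 normalized counts at 0 h, then 656.1 and 815.7 at 2 h and finally 433.4 and 472.2 at 6 h, with a log2 fold change of -1.28 ± 0.17 (adjusted p = 1.81e-13), where the list median was -0.16. Its change was under 2-fold with the effective length offset (-0.73) and with limma on TPM (-0.86). Cd81, which encodes a tetraspanin, passed the weaker rule at 2 h (0.27 ± 0.1, adjusted p = 0.0254) and 6 h (0.25 ± 0.1, adjusted p = 0.026), and Nap1l4, a histone chaperone gene, passed it at 6 h (-0.24 ± 0.1, adjusted p = 0.0283). Of 40 other imprinted genes tested, 5 were called higher and 1 lower at 2 h, 11 higher and none lower at 6 h against 0 h, and 5 higher and 2 lower from 2 h to 6 h, which were 15%, 27.5% and 17.5% beside 9.55%, 19.3% and 18.1% of all genes. Without replicate 1 at 2 h the last count was 11 in place of 7. The median log2 fold changes were 0.28, 0.5 and 0.05. Zdbf2, a paternally expressed zinc finger gene, rose by 2.71 ± 0.28 at 2 h (adjusted p = 7.72e-20) and by 3.3 ± 0.28 at 6 h (adjusted p = 1.26e-29) on the log2 scale. The 2 h libraries of Zdbf2 lay apart (14813.3 and 7312.2 normalized counts), and its value at 2 h was 2.11 without replicate 1 and 3.12 without replicate 2. Mkrn3, a paternally expressed ubiquitin ligase gene, fell at 2 h (-1.76 ± 0.19, adjusted p = 3.74e-18) and rose again from 2 h to 6 h (1.7 ± 0.19, adjusted p = 4.96e-17). Usp29, a paternally expressed gene beside Peg3, was the called gene with the smallest change at 6 h against 0 h (1.11 ± 0.14, adjusted p = 2.24e-14), and it was under 2-fold with library totals (0.86), limma on TPM (0.92) and GC correction (0.98). Dlx5, a homeobox gene of inhibitory neurons, was lower at 6 h than at 2 h (-1.16 ± 0.3, adjusted p = 0.000532), a change that did not pass without replicate 2 at 2 h (-0.92, adjusted p = 0.0748).

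To examine whether the mix of transcripts changed, the effective length of each gene, which moves with the transcripts that RSEM assigns, was compared over time. Of the 8 members tested (all but Neat1), whose expected counts averaged 100 or more, none was called in any comparison by limma (adjusted p of 0.05 or less, log2 ratio of 0.2 or more), where the rule called 0.0356% (2 h against 0 h), 0.525% (6 h against 0 h) and 0.116% (6 h against 2 h) of 11233 genes. At an unadjusted p under 0.05 there were 0, 1 and 2 members, which were Rian at 6 h against 0 h, and Rian and Gas5 from 2 h to 6 h. The lowest adjusted p was 0.132, that of Rian. Malat1 had effective lengths of 5614.8 and 4249.8 bases at 0 h, then 3206.9 and 3752.2 at 2 h and finally 4218.7 and 3861.5 at 6 h, a log2 ratio of -0.49 ± 0.18 (SE, adjusted p = 0.628) at 2 h. The 2 libraries at 2 h were the shortest, but the 2 libraries at 0 h differed from each other by more than the means of 0 h and 6 h did. The Meg3 libraries at 0 h also lay far apart, with 5291.1 and 4154.1 bases. With the effective length as an offset in the count model, Malat1 was called at 2 h (1.47, adjusted p = 0.0053) and its step from 2 h to 6 h was 0.96 (adjusted p = 0.0641).

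The difference between the 2 h libraries bore unevenly on the members. On the log2 scale replicate 1 exceeded replicate 2 at 2 h by 1.24 in Kcnq1ot1, 0.95 in Neat1, 0.88 in Malat1, 0.67 in Snhg11, 0.6 in Meg3 and 0.31 in Rian. The difference was 0.1 in Miat and 0.02 in Gas5, and Mirg was the only one with a higher replicate 2 (-0.31). After GC correction the difference was smaller in Kcnq1ot1 (0.57) and Malat1 (0.43), changed sign in Rian (-0.35), moved away from 0 in Gas5 (-0.42), and stayed in Neat1 (0.92), Snhg11 (0.68) and Meg3 (0.72). The part of the library in these differences was not tested further.

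**Figure D5:**
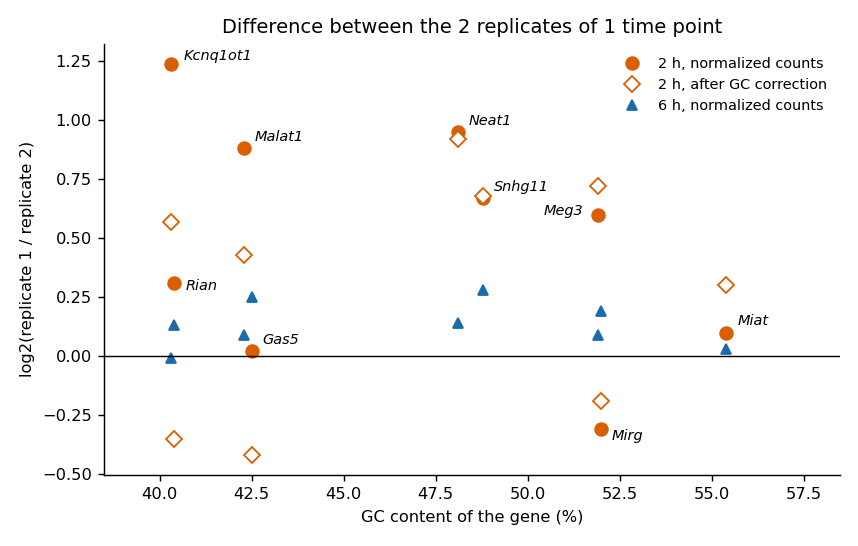
Log2 ratio of replicate 1 over replicate 2 for each gene against its GC content in percent, for the 2 h libraries before and after GC correction and for the 6 h libraries. At 2 h the ratios run from -0.31 to 1.24, and at 6 h from -0.01 to 0.28.

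To place 8 of the members among all genes, the 2 genes with the most similar course were found by the root-mean-square difference of log2(normalized count + 1) from the 0 h mean over the 6 libraries, among 11183 genes that averaged 100 or more normalized counts. Rian was followed most closely by Sf3b1 (0.041), a splicing factor subunit, and Npm1 (0.045), a nucleolar protein. Mirg was nearest to Scg2 (0.158), a secretory granule protein, and Dusp14 (0.199), a phosphatase. Meg3 was nearest to Gm26794 (0.096) and Ttll7 (0.098), Malat1 to Idi1 (0.144) and Creb5 (0.15), and Neat1 to Zfp11 (0.142) and 5730507C01Rik (0.172). Miat was nearest to Cemip2 (0.071) and Rerg (0.094), Gas5 to Golim4 (0.044) and Llph (0.048), and Kcnq1ot1 to Gucy1a2 (0.12) and Kcnh7 (0.126). Among the members themselves, Meg3 and Miat were the closest pair (0.281). These are descriptions over the same 6 libraries, which share their depth and base composition.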

How the data were processed

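RNA-seq libraries from mouse cortical neurons were analysed in 3 groups of 2 (0 h, 2 h and 6 h of KCl), and the groups were read from the sample titles. Per the labels and the study's methods, the authors made stranded poly(A) libraries, sequenced them in the 150 bp paired-end mode, trimmed the reads and estimated expression on mm10, and the submitters' processing notes name RSEM 1.3.0 and Bowtie2 2.2.9. The deposited tables hold expected counts, TPM and effective lengths per gene, all as the authors deposited them. Gene names, positions and GC content were taken from GENCODE M21 (GRCm38), which gave a symbol for 42548 of the 43432 genes, and GC content was known for 99.1% of the genes with a count.

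Expected counts were rounded and fitted with DESeq2 1.42.0 (Wald test, all 6 libraries, group as the only term, R 4.3.3), and p-values were adjusted by Benjamini-Hochberg over all genes kept by independent filtering. Normalized counts are expected counts divided by the DESeq2 size factors. Effective lengths were tested with limma 3.58.1. The models were first tested on simulated data. GC correction removed a lowess trend (span 0.3) of log2 counts on GC content in each library. Alternatives were edgeR 4.0.16 (quasi-likelihood test), TMM factors, library totals, a mean count of at least 10, a test against a 2-fold change, an effective length offset, limma on log2(TPM + 0.5), a replicate block, GC correction and leaving out each library.

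The 10 genes and the lists of other genes were chosen with earlier results of these data known. Besides the 10 genes, the text names genes of their domains, genes that overlap them, and for each list the called genes with the largest and smallest change among those averaging 50 or more normalized counts. Of the Kcnq1 domain, only Kcnq1, Cdkn1c, Slc22a18 and Phlda2 were set by name beforehand. Outside these rules, the text also names Cd81, Nap1l4, Sfpq, Nono, Sf1, Celf3, Pspc1, Hnrnph3 and Snhg20. The genes with a course most like that of Snhg11 are not reported here. Reads carry no molecular identifiers, so intervals on counts cover counting error only.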

Additional observations from a re-analysis of the deposited data

How the results depend on the processing

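Of 432 recomputed log2 fold changes of members, 384 kept their direction and their side of the call, 23 lost and 7 gained the call, and 18 changed sign, none of them called in the main analysis or under the alternative that turned the sign. Those were Kcnq1ot1 at 2 h against 0 h with library totals (-0.06) and with limma on TPM (-0.03), Gas5 at 6 h against 0 h with library totals (-0.19), the effective length offset (-0.08), limma on TPM (-0.24), GC correction (-0.15) and the replicate block with GC correction (-0.15), Gas5 at 6 h against 2 h with the effective length offset (-0.03), limma on TPM (-0.02), GC correction (-0.15) and both corrections (-0.14), and Rian at 6 h against 2 h with GC correction (-0.18) and both corrections (-0.17). Leaving out single libraries gave -0.41 to 0.19 for Meg3 and -0.65 to 0.59 for Kcnq1ot1 at 2 h, and -0.07 to 0.18 for Gas5 at 6 h against 0 h. With limma on TPM, Kcnq1ot1 lost the call at 6 h (0.93 against 0 h and 0.95 against 2 h) and Neat1 from 2 h to 6 h (0.84), and Neat1 at 2 h was -1.02, genes with TPM near the pseudocount of 0.5. The cause of these changes was not tested.

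The number of members called (2, 5 and 6 in the 3 comparisons) was 1, 3 and 1 when tested against a 2-fold change, which asks for more by its construction, and ran from 1 to 3, from 4 to 6 and from 4 to 6 with single libraries left out. Mirg at 2 h and Mirg, Malat1 and Miat at 6 h against 0 h passed the stricter test. Of the 124 listed genes, not all of which were tested, 8, 23 and 15 were called, where the rule called 9.55%, 19.3% and 18.1% of all genes tested. The stricter test called 3, 7 and 2 of the listed genes, while limma on TPM called 13 at 6 h against 0 h. Library totals as size factors moved the median log2 fold change of all genes by -0.167 at 2 h and -0.246 at 6 h against 0 h, and limma on TPM by -0.171 and -0.146. The replicate numbers were not treated as pairs: deviations of same-numbered libraries correlated by 0.281 (2 h and 0 h), -0.0023 (6 h and 0 h) and 0.152 (6 h and 2 h), and the replicate block left 2, 5 and 6 members called. No member was called for effective length under any alternative. Depth limits Neat1, with 4 to 41 counts per library, and 2 libraries per group limit all tests.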

Other observations

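Of the lncRNAs other than the 10, 58 of 1503 tested were called higher and 46 lower at 2 h, 6.92% in all beside 9.55% of all genes. At 6 h against 0 h, 155 of 1631 were called higher and 117 lower, 16.7% in all beside 19.3% of all genes. The largest change was that of 1700016P03Rik, which had no count at 0 h, 345.5 and 356.7 normalized counts at 2 h, and 324.2 and 288.3 at 6 h. A330023F24Rik had 83.4 and 79.2 normalized counts at 0 h, then 24 and 11.4 at 2 h and finally 178.7 and 210.8 at 6 h. The 2 h libraries were the lowest and the 6 h libraries the highest, as in Miat and Snhg11. 4933404O12Rik was lower at 6 h, with 532.6 and 578.1 normalized counts at 0 h, then 461.4 and 485.9 at 2 h and finally 97.4 and 87.1 at 6 h, and a log2 fold change of -2.59 ± 0.19 (DESeq2 adjusted p = 4.63e-39) at 6 h. Gm16185 had 96.8 and 45.5 normalized counts at 0 h, then 19 and 4.1 at 2 h and finally 54.6 and 91.4 at 6 h, a dip at 2 h like that of Neat1.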
